A study of Mus musculus with 2 samples.

Results

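The 10 genes described here belong to the NF-kB signalling pathway and its feedback: Nfkb1, Nfkb2, Rela, Relb, Nfkbia, Nfkbiz, Nfkbie, Tnfaip3, Birc3 and Bcl3. They were chosen by symbol, and each symbol was found exactly 1 time among the 55357 genes listed for both libraries. Droplet single-cell RNA sequencing had been run on liver cells of mice made fibrotic with CCl4 (carbon tetrachloride), a solvent that injures hepatocytes and leads to scarring when given over weeks. The 2 groups had 1 library each, from mice given CCl4 only and from mice given CCl4+IPA. IPA is indole propionic acid, which gut bacteria make from tryptophan, and the CCl4+IPA library is called the IPA library from here on. All mice had therefore received CCl4, and no library of untreated liver was analysed. Strain, age, sex, dose and the number of animals behind a library are details the labels do not state. The study's title names IPA, profibrogenic macrophages and liver fibrosis, and the comparison of the libraries asks how the cells differed with IPA.

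NF-kB proteins are dimers of the Rel family, which in resting cells are held in the cytoplasm by inhibitors of the IkB family. Ligands of tumour necrosis factor, interleukin 1 and Toll-like receptors activate a kinase that marks the inhibitors for destruction, and the freed dimers enter the nucleus and switch on their targets. Among those targets are the inhibitors themselves and enzymes that cut the signal at the receptor, so that the pathway limits itself. In the liver the pathway is known for its part in inflammation by macrophages and in the survival of hepatocytes.

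NF-kB dimers bind short stretches of DNA, and the feedback genes are textbook targets. The start-site windows of Nfkbia, Tnfaip3 and Nfkb2 are printed because they held a match to the binding motif and because all 3 genes were past 1.5-fold in the same cell class, as described further on. The sequences are from RefSeq on build GRCm38.p6, which is not the build named for the deposited counts, and run 5′ to 3′ on the gene's strand over the 250 bases before the start. Capitals mark matches to the kappa B consensus on either strand, a pattern settled on after a first search of the windows.
Nfkbia, chr12:55492648-55492897, minus strand: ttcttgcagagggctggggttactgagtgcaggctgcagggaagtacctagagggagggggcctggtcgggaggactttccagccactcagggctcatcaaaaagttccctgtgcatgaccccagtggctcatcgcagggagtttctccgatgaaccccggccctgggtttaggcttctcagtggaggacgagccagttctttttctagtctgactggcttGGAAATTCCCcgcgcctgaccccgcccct
Tnfaip3, chr10:19015411-19015660, minus strand: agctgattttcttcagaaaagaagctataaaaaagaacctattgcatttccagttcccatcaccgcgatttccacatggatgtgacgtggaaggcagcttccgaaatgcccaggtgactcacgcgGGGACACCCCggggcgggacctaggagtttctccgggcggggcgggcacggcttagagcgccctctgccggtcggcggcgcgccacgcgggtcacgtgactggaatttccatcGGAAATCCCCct
Nfkb2, chr19:46304487-46304736, plus strand: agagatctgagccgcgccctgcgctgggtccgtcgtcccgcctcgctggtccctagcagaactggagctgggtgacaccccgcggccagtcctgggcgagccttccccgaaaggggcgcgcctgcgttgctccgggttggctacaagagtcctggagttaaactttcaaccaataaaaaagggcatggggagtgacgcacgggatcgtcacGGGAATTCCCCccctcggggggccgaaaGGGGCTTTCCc
The match in Nfkbia began 29 bases before the start. Tnfaip3 held matches at 125 and 12 bases before the start, the first of them on both strands. In Nfkb2 a palindromic match, GGGAATTCCC, began 39 bases before the start and overlapped another at 38 bases, and GGGGCTTTCC began 11 bases before it. Later start sites of Nfkb2 had windows of their own with a match each, GGAATGTCCC and GGGACTTTCC. The window of a later start site of Tnfaip3 held no match. Of the 10 members, 7 were in the table, with 10 windows, of which 6 held a match, and 4 of these 7 genes held one, the fourth being Nfkbie with GGGGGATTCC at 106 bases. The windows of Rela, Birc3 and Bcl3 held no match to these letters. Of 32851 windows of the same length over all genes in the table, 7.25% held a match on either strand, as did 8.23% of the 27025 genes in at least 1 window. Because the pattern was settled on after a first search, the shares of members and of all genes are a description and not a test. Nfkb1, Relb and Nfkbiz were not looked up elsewhere. A match describes the letters only.

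The CCl4 library held 10427 barcodes with 45009730 unique molecular identifiers (UMIs, each counting 1 captured transcript), at a median of 3172 per barcode. The IPA library held 10471 barcodes with 37983923 UMIs, at a median of 2771. Cells were assigned to classes by gates on marker genes, none of which is among the 10 genes, and 8750 and 9274 cells were gated. The libraries shared 23 barcode sequences, 17 of them gated in both. In the CCl4 library 609 barcodes, against 62 in the IPA library, lay in 2 clusters with markers of many cell types and were left out. The median share of mitochondrial UMIs was 3.66% with CCl4 alone and 1.77% with IPA, and 1 ribosomal RNA gene, Rn18s-rs5, took 7.46% and 1.18% of UMIs. Nearly all gated cells were leukocytes: only 13 and 14 were gated as hepatocytes, and 0 as endothelial cells.

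The main classes, each with at least 100 cells in both libraries, were B cells (3691 with CCl4 alone and 3210 with IPA), T cells (2474 and 3280), natural killer cells or type 1 innate lymphoid cells (NK or ILC1, 461 and 930), neutrophils (803 and 1032), classical monocytes (174 and 165) and plasmacytoid dendritic cells (pDCs, 359 and 326). Type 2 conventional dendritic cells (cDC2s, 350 and 93) are given as well, although they fall short of 100 cells in the IPA library. Macrophage-gated cells, the type the study's title names, numbered 123 and 18. Their median was 1064 UMIs with CCl4 alone and 981 with IPA, and Nfkb1 had 12 and 6 UMIs there and Tnfaip3 25 and 6, too few to describe. Other small classes are named below only where a gene had at least 20 UMIs and one of its highest levels. A level is given in CPM, the UMIs of a gene per 1000000 UMIs of the class in that library, with its 95% exact Poisson interval in parentheses. Where a pair of values is given, the CCl4 library comes first and the IPA library follows. Ratios are of the IPA library over the CCl4 library with 95% exact conditional intervals. With 1 library per group there is no replicate error, no test was possible, and all intervals cover counting error only. A comparison here sets 1 library beside another, and what belongs to the treatment and what to the library cannot be told apart.

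Across the 10 genes and 6 main classes, levels were higher in the IPA library in 55 of 60 gene-class pairs, and 21 pairs were at least 1.5-fold higher. The count of pairs at least 1.5-fold lower was 0. The 95% interval of the ratio lay above 1 in 41 pairs and below 1 in 0. Over all genes measured in the same classes (at least 20 UMIs over both libraries), 74.7% of gene-class pairs had a ratio above 1, 17.7% were at least 1.5-fold higher and 3.73% at least 1.5-fold lower, and the interval lay above 1 in 31% and below 1 in 3.72%. The median ratio of all genes was itself above 1 in every main class, from 1.11 in neutrophils to 1.22 in T cells. With totals taken without mitochondrial, ribosomal protein, immunoglobulin, haemoglobin and 18S ribosomal RNA genes, 5 of the 60 pairs were at least 1.5-fold higher, beside 9.59% of all pairs. Each ratio was therefore also divided by the median ratio of all genes in its class, called the relative ratio here. By that measure 46 of 60 pairs were above 1, beside 50% of all pairs by construction, and 4 were at least 1.5, beside 8.51% of all pairs. These were Tnfaip3 and Nfkbiz in pDCs, Nfkbiz in NK or ILC1 and Birc3 in classical monocytes. A relative ratio of 1/1.5 or less was found in 0 pairs, beside 7.12% of all pairs. The 95% interval of the relative ratio lay above 1 in 26 of 60 pairs, beside 11.5% of all pairs, and below 1 in 5, beside 13%. An interval narrows as UMIs rise, and genes differ in how many they have.

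**Figure D1:**
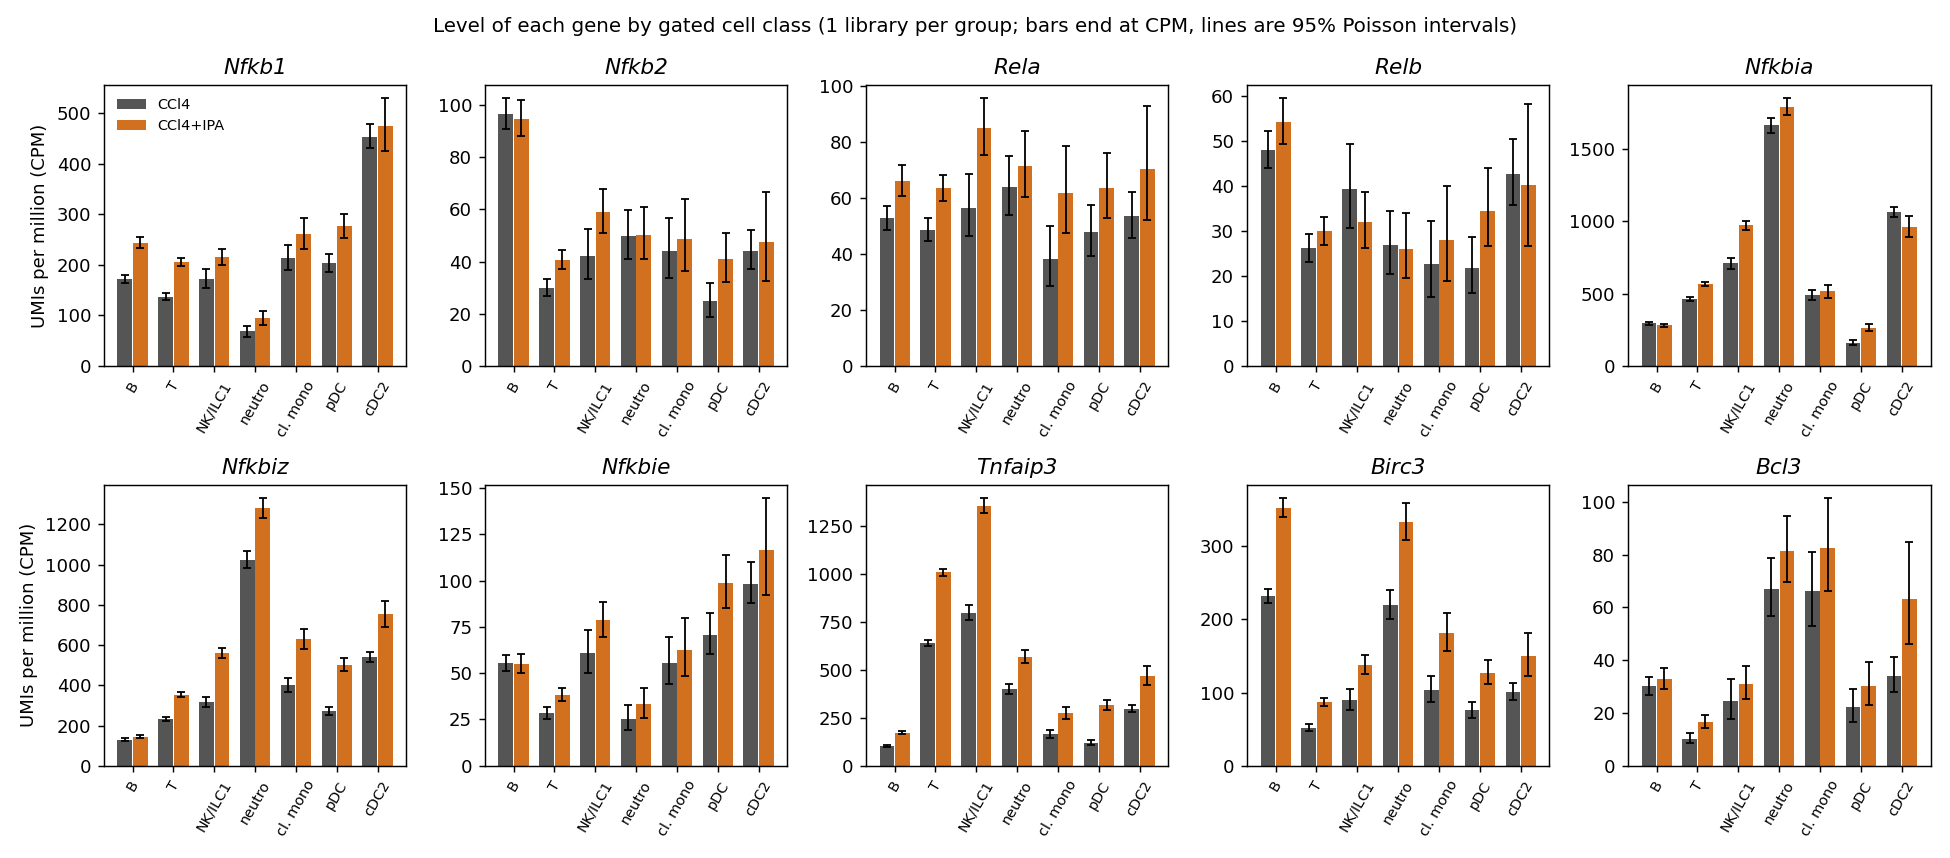
Level of each of the 10 genes (y axis, CPM) by gated cell class (x axis), with grey bars for the CCl4 library, orange bars for the IPA library and lines for 95% Poisson intervals. Nfkbia and Nfkbiz are tallest in neutrophils, Tnfaip3 in NK or ILC1 and T cells, and the orange Tnfaip3 and Birc3 bars stand above the grey ones in each class drawn.

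The DNA-binding subunits come first. Nfkb1 encodes the precursor of a subunit of the classical dimer. It was high in cDC2s, at 454 CPM (431 to 478) with CCl4 alone and 476 CPM (426 to 530) with IPA. Next of the main classes came classical monocytes at 213 and 261 CPM and pDCs at 203 and 277 CPM, which did not differ from each other beyond counting error in either library. Nonclassical monocytes, 64 and 23 cells, held 322 CPM (265 to 387) from 112 UMIs and 493 CPM (364 to 654) from 48 UMIs, below the cDC2s with CCl4 alone and overlapping them with IPA. Neutrophils were lowest, at 68.4 and 94.8 CPM, so that cDC2s stood 6.64-fold and 5.02-fold above them. Between the libraries, Nfkb1 went from 173 to 244 CPM in B cells, a ratio of 1.41 (1.33 to 1.504). In T cells it went from 137 to 205 CPM, a ratio of 1.495 (1.40 to 1.60), just outside the 1.5-fold limit. Its ratio had an interval above 1 in all 6 main classes, and none of its ratios reached 1.5. Relative to all genes it ranged from 1.07 in NK or ILC1 to 1.24 in neutrophils, with the interval above 1 in 4 of 6 classes. In cDC2s the ratio was 1.05 (0.927 to 1.18), below the all-gene median of 1.15 there.

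Rela encodes the main activating subunit of the classical dimer. Its level was the most even of the 10 across the classes, with a span of 1.68-fold from highest to lowest with CCl4 alone and 1.38-fold with IPA. In the CCl4 library neighbouring classes in the order overlapped throughout, from neutrophils at 63.9 CPM (53.9 to 75.3) to classical monocytes at 38.1 CPM (28.5 to 50.0). In the IPA library NK or ILC1 led at 85.2 CPM (75.6 to 95.8). Cholangiocytes of the CCl4 library, 13 cells, held 99.1 CPM (65.3 to 144) from 27 UMIs. The ratio was 1.503 (1.197 to 1.90) in NK or ILC1, the pair just inside the limit, and 1.62 (1.11 to 2.37) in classical monocytes, from 52 and 66 UMIs. With 1 more marker needed for a gate, the Rela log2 ratio in classical monocytes was 0.31 in place of 0.69, under the limit. Relative to all genes only NK or ILC1 had an interval above 1, at 1.29 (1.03 to 1.63).

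Nfkb2 and Relb form the dimer of the alternative pathway, which receptors such as that for the B cell survival factor BAFF activate. Of the main classes and cDC2s, Nfkb2 was highest in B cells in both libraries, at 96.6 CPM (90.9 to 103) and 94.7 CPM (88.2 to 102). The other classes lay between 24.7 and 49.6 CPM with CCl4 alone and between 40.6 and 59.0 CPM with IPA, so none overlapped the B cells. In B cells the Nfkb2 ratio was 0.981 (0.893 to 1.08), while all genes there had a median of 1.21. Its relative ratio of 0.810 (0.737 to 0.889) was below 1. In pDCs Nfkb2 went from 24.7 to 40.9 CPM, a ratio of 1.65 (1.16 to 2.36) from 59 and 77 UMIs.

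Relb was highest in migratory dendritic cells, marked by genes such as Ccr7 and Fscn1. These were only 7 and 8 cells, with 38 and 22 Relb UMIs, at 790 CPM (559 to 1084) with CCl4 alone and 882 CPM (553 to 1335) with IPA. In both libraries these intervals lay above those of every main class, where B cells led with 48.1 and 54.2 CPM. In NK or ILC1 Relb went the other way from most pairs, from 39.3 to 31.9 CPM, a ratio of 0.813 (0.597 to 1.11), while its log2 ratio was 0.08 with every cell thinned to 1000 UMIs in place of -0.30. Relative to all genes it was 0.698 (0.512 to 0.955) there, the only main-class pair outside B cells with an interval below 1. In pDCs it went from 21.8 to 34.5 CPM, a ratio of 1.58 (1.08 to 2.32), and its log2 ratio was 1.66 with thinning to 1000 UMIs in place of 0.66.

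The inhibitors follow. Nfkbia encodes the classical IkB protein, which holds dimers in the cytoplasm and is remade under NF-kB control after it has been destroyed. Its level was highest in basophil or mast cells, 45 and 31 cells in number, at 2225 CPM (2004 to 2463) with CCl4 alone and 3440 CPM (3076 to 3835) with IPA. Of the main classes, neutrophils led with 1661 CPM (1608 to 1715) and 1789 CPM (1732 to 1848). At the other end pDCs held 161 and 265 CPM and B cells 294 and 280 CPM, so that neutrophils stood 10.3-fold and 6.74-fold above pDCs. The ratio was 1.64 (1.44 to 1.88) in pDCs and 1.37 (1.28 to 1.46) in NK or ILC1. In T cells it was 1.23 (1.19 to 1.28), against an all-gene median of 1.22. In B cells the Nfkbia ratio was below the all-gene median of 1.21, at 0.951 (0.901 to 1.00), with a relative ratio of 0.784 (0.743 to 0.828). In cDC2s Nfkbia was lower in the IPA library, 1063 against 960 CPM, a ratio of 0.903 (0.830 to 0.981). Its relative ratio there was 0.788 (0.724 to 0.856), close to that in B cells. The 5 pDC markers summed to 374 and 931 CPM in cDC2s, with 5 of 5 higher, and their part in the cDC2 ratios was not tested.

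Nfkbiz encodes an atypical, nuclear IkB protein that helps switch on secondary response genes. Basophil or mast cells held the highest level again, at 1361 CPM (1190 to 1551) and 2276 CPM (1982 to 2601), followed by neutrophils among the main classes at 1023 CPM (982 to 1066) and 1282 CPM (1233 to 1331). B cells were lowest in both libraries, at 130 and 144 CPM. The ratio exceeded 1.5 in 4 of the 6 main classes. It was 1.86 (1.68 to 2.05) in pDCs, where the level went from 271 to 502 CPM, and 1.78 (1.62 to 1.95) in NK or ILC1, where it went from 316 to 561 CPM. Other markers differed in NK or ILC1 too: their own 8 markers summed to 11836 and 10258 CPM, the 8 T cell markers to 897 and 1264 CPM with 6 of 8 higher and 0 at 0 UMIs, and the 4 regulatory T cell markers to 152 and 267 CPM. Their part in the NK or ILC1 ratios was not tested. Cluster 15, which has no class name, held 21.7% and 36.7% of these cells. In classical monocytes the Nfkbiz ratio was 1.57 (1.40 to 1.76) and in T cells 1.53 (1.45 to 1.61). B cells and neutrophils had lower ratios, at 1.11 (1.03 to 1.204) and 1.253 (1.18 to 1.33). Relative to all genes the interval was above 1 in 5 classes and below 1 in B cells, at 0.919 (0.850 to 0.993).

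Nfkbie encodes a further cytoplasmic IkB protein. Of the main classes and cDC2s it was highest in cDC2s, at 98.4 CPM (87.8 to 110) and 116 CPM (92.4 to 145), and next in pDCs, at 70.9 and 98.7 CPM. The cDC2s and pDCs differed beyond counting error in the CCl4 library and overlapped in the IPA library. The ratio ran from 0.995 (0.879 to 1.13) in B cells to 1.39 (1.12 to 1.73) in pDCs, and none reached 1.5 in a main class. With every cell thinned to 1000 UMIs, the Nfkbie log2 ratio in pDCs was 1.09 in place of 0.48, past the limit. Bcl3 encodes a nuclear IkB protein that acts with dimers made from the Nfkb1 and Nfkb2 products. Among these classes it was highest in neutrophils, at 67.0 and 81.2 CPM, and in classical monocytes, at 66.0 and 82.3 CPM, which overlapped in both libraries. T cells were lowest, at 10.3 and 16.7 CPM, and had the highest Bcl3 ratio of the main classes, 1.62 (1.28 to 2.06). With thinning the Bcl3 log2 ratio was 1.10 in NK or ILC1 in place of 0.34, and -0.011 in pDCs in place of 0.44. In cDC2s Bcl3 went from 34.2 to 63.2 CPM, a ratio of 1.85 (1.27 to 2.65) from 109 and 44 UMIs.

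Tnfaip3 and Birc3 act on ubiquitin at the receptor complex. Tnfaip3 encodes an enzyme that edits ubiquitin chains and damps the signal, and loss of it is known to cause severe inflammation. Basophil or mast cells held 1445 CPM (1269 to 1640) with CCl4 alone and 2286 CPM (1992 to 2612) with IPA. Of the main classes, NK or ILC1 led with 798 CPM (758 to 840) and 1356 CPM (1317 to 1396). T cells followed with 641 CPM (626 to 656) and 1009 CPM (991 to 1027). The order NK or ILC1, T cells, neutrophils and cDC2s was the same in both libraries, and none of these neighbours overlapped. B cells were lowest, at 104 and 173 CPM.

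Tnfaip3 was higher in the IPA library in every main class, with the interval of the ratio above 1 in each. The highest ratio of all 60 pairs was that of pDCs, where Tnfaip3 went from 119 CPM (106 to 134) to 315 CPM (290.5 to 342), a ratio of 2.65 (2.29 to 3.06) from 284 and 594 UMIs. The ratio was 1.70 (1.60 to 1.80) in NK or ILC1, 1.67 (1.55 to 1.81) in B cells and 1.57 (1.53 to 1.62) in T cells. In classical monocytes it was 1.68 (1.41 to 2.01) and in neutrophils 1.42 (1.30 to 1.55), the only main class under 1.5. With every cell thinned to 1000 UMIs, the log2 ratio in classical monocytes was 0.16 in place of 0.75. Relative to all genes Tnfaip3 ranged from 1.27 in neutrophils to 2.32 (2.01 to 2.69) in pDCs, with the interval above 1 in all 6 classes.

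Birc3 encodes a ubiquitin ligase that supports survival signalling downstream of tumour necrosis factor receptors and restrains the alternative pathway. Of the main classes and cDC2s it was highest in B cells, at 232 CPM (223 to 241) and 353 CPM (340 to 366), and in neutrophils, at 220 CPM (201 to 240) and 334 CPM (309 to 360), which overlapped in both libraries. T cells were lowest, at 52.3 and 87.0 CPM. Its ratios were close together, from 1.52 (1.35 to 1.71) in neutrophils and 1.52 (1.44 to 1.60) in B cells to 1.74 (1.40 to 2.18) in classical monocytes, and it was the only gene of the 10 past 1.5-fold in all 6 main classes, or in 5 of 6 without the B cells of cluster 21 described below. Relative to all genes it ranged from 1.26 to 1.52, again with every interval above 1.

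**Figure D2:**
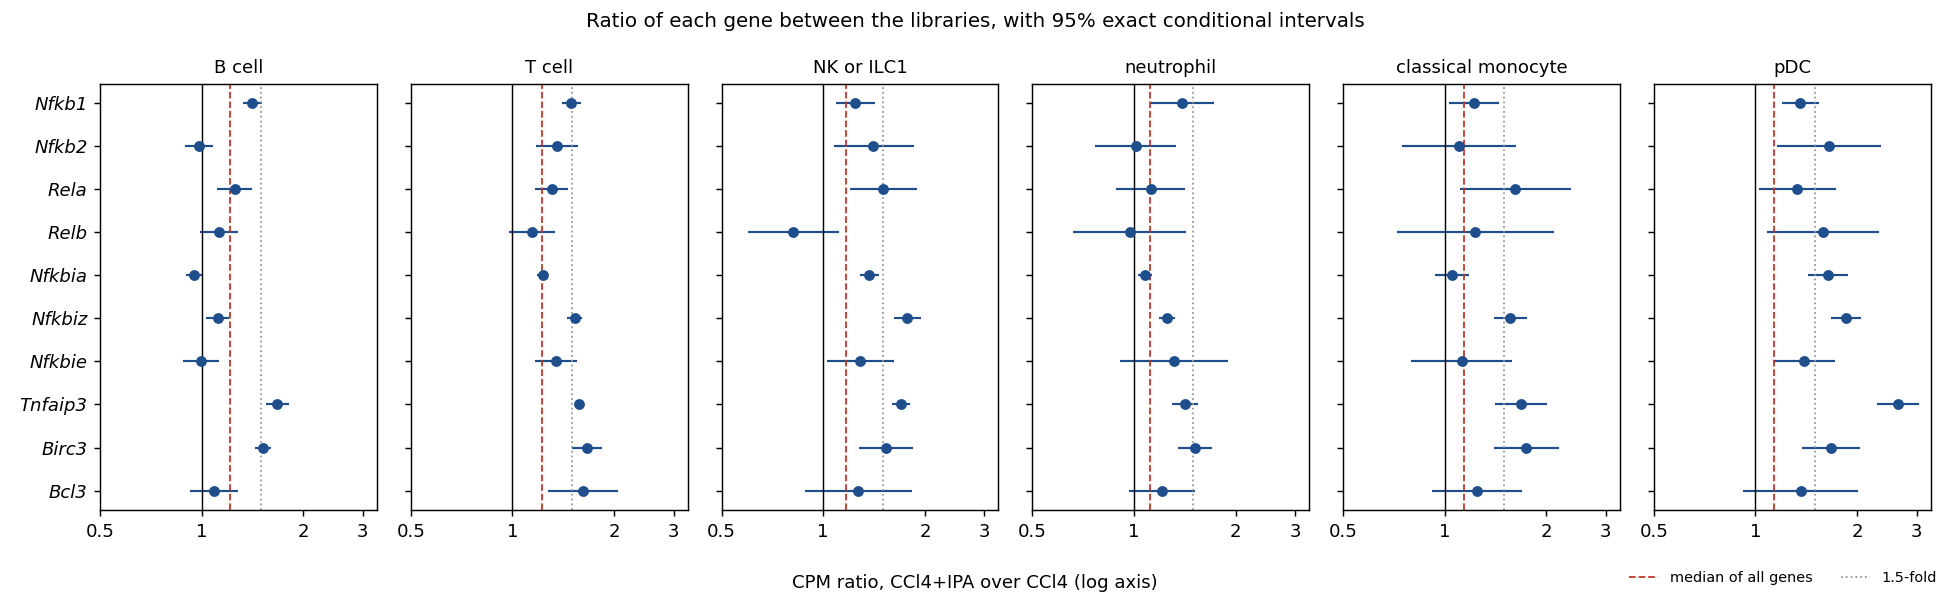
Ratio of CPM, IPA library over CCl4 library, on a log axis (x) for each gene (y) in the 6 main classes, as points with 95% exact conditional intervals, a solid line at 1, a dashed line at the median of all genes of the class and a dotted line at 1.5-fold. The Tnfaip3 and Birc3 intervals lie right of the dashed line in all 6 panels, and Tnfaip3 in pDCs is the only point past 2.

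By class, pDCs stood highest. All 10 genes had ratios above 1 and above the all-gene median of 1.14 in pDCs, with a median log2 ratio of 0.69 against 0.19 for all genes. Past 1.5-fold were 6 of the 10 (Nfkb2, Relb, Nfkbia, Nfkbiz, Tnfaip3 and Birc3), beside 16.9% of all genes there. In T cells the median was 0.51 against 0.29, with Nfkbiz, Tnfaip3, Birc3 and Bcl3 past 1.5-fold beside 17.9% of all genes. In NK or ILC1 it was 0.47 against 0.22, with Rela, Nfkbiz, Tnfaip3 and Birc3 past the limit beside 19.5%. Classical monocytes had a median of 0.31 against 0.19 and the same 4 genes as NK or ILC1 past the limit, beside 18.9%. Neutrophils had 0.30 against 0.16 and Birc3 alone past it, beside 15.4%. In cDC2s it was 0.32 against 0.20, with Tnfaip3 and Bcl3 past it beside 21.2%. Marker lists differed in classical monocytes too: their own 6 markers summed to 5775 and 8284 CPM, with 6 of 6 higher. The 10 macrophage markers summed to 261 and 54.2 CPM there, the 5 pDC markers to 50.6 and 3.74 CPM and the 8 T cell markers to 16.1 and 35.5 CPM. Their part in the classical monocyte ratios was not tested.

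In B cells the median over the 10 genes was 0.16, below the 0.28 of all genes, and only Nfkb1, Rela, Tnfaip3 and Birc3 were above the all-gene median. Tnfaip3 and Birc3 were past 1.5-fold, beside 17.1% of all genes in B cells. The relative ratio had an interval below 1 for 4 genes, namely Nfkb2 at 0.810, Nfkbia at 0.784, Nfkbiz at 0.919 and Nfkbie at 0.821 (0.725 to 0.929). In the same cells Tnfaip3 had a relative ratio of 1.38 (1.28 to 1.49) and Nfkbia, likewise a feedback inhibitor, 0.784. B cells lay in different clusters in the libraries, which mixes level with makeup: cluster 21 held 2.52% of them with CCl4 alone and 21.5% with IPA, and cluster 0 held 25.7% and 12.9%. The level of the activation marker Cd83 in B cells went from 560 to 912 CPM. Without cluster 21, an alternative chosen after seeing the data, the Tnfaip3 ratio was 1.47 (1.35 to 1.61) and that of Birc3 1.48 (1.39 to 1.57), both under the 1.5-fold limit, with relative ratios of 1.21 each. The relative ratio of Nfkbiz was then 0.940 (0.865 to 1.02), while Nfkb2, Nfkbia and Nfkbie kept intervals below 1.

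**Figure D3:**
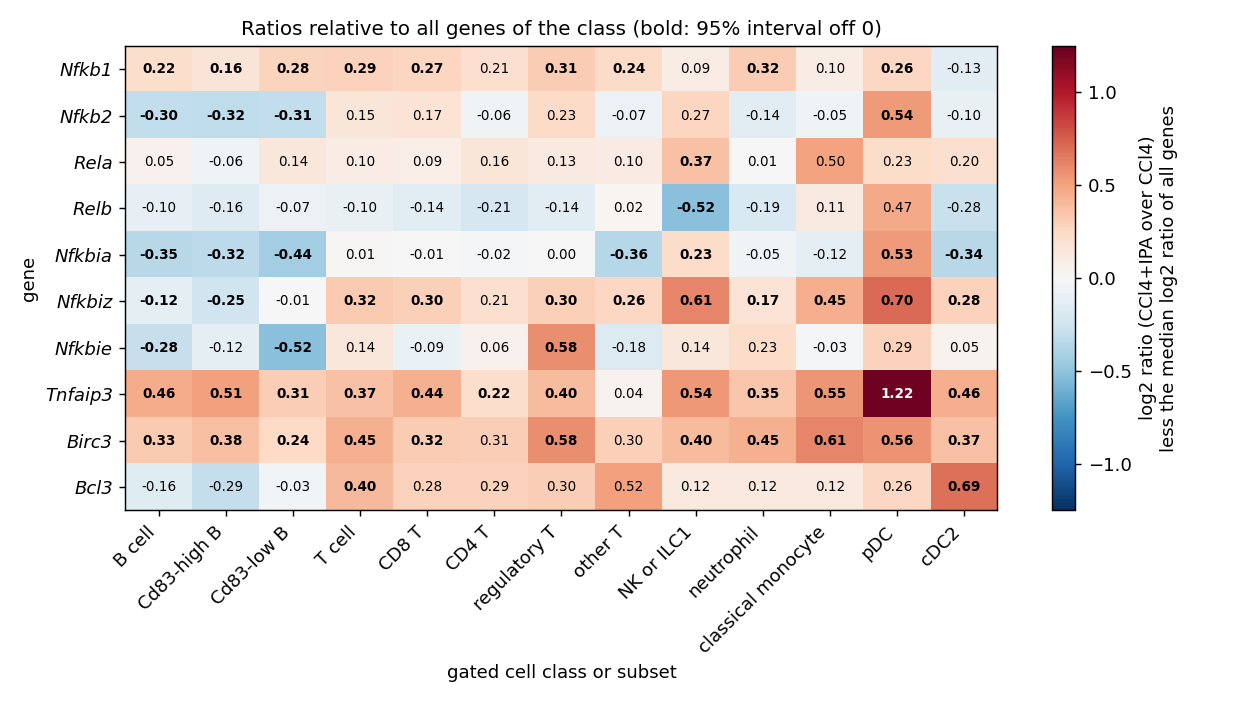
Relative ratios on the log2 scale (colour and printed value, red for above and blue for below the median of all genes) for each gene (rows) in each gated class or subset (columns), in bold where the 95% interval excludes 0. The Tnfaip3 and Birc3 rows are above 0 throughout, and most bold values below 0 lie in the 3 B cell columns.

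The ratios were also read in subsets of T and B cells. T cells were split by further markers into CD8 (1294 and 1537 cells), CD4 (296 and 376), regulatory (345 and 656) and other T cells (539 and 711). Regulatory T cells were those with at least 2 of the 4 markers Foxp3, Il2ra, Ctla4 and Ikzf2, whatever their CD8 or CD4 markers. Foxp3 itself was not required, so other T cells with these markers could be among them. Regulatory T cells so gated held the highest T cell levels of Tnfaip3, at 887 and 1402 CPM, and of Nfkbia, at 817 and 981 CPM. They also made up more of the T cells in the IPA library, so the T cell class as a whole mixes levels and makeup. In regulatory T cells Nfkbie, Tnfaip3 and Birc3 were past 1.5-fold, beside 21.9% of all genes in that subset, with ratios of 1.79 (1.33 to 2.44), 1.58 (1.49 to 1.68) and 1.79 (1.47 to 2.21). In CD8 T cells Nfkbiz, Tnfaip3 and Birc3 were past the limit, beside 18.1%, and in CD4 T cells 0 of 10 were, beside 18.9%. In the other T cells Tnfaip3 had a ratio of 1.247 (1.17 to 1.33), close to the all-gene median of 1.21 there, and Bcl3 was the single gene past the limit, beside 21.6%. The relative ratio of Nfkbia in the other T cells was 0.781 (0.721 to 0.847).

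B cells were split by Cd83, an activation marker and NF-kB target, into Cd83-high (at least 2 UMIs, 1456 and 1474 cells) and Cd83-low cells (2235 and 1736). Birc3 was 253 and 390 CPM in Cd83-high cells and 216 and 315 CPM in Cd83-low cells. Tnfaip3 and Birc3 were past 1.5-fold in Cd83-high B cells, beside 16.3% of all genes, and Nfkb1 and Tnfaip3 in Cd83-low B cells, beside 20.2%. The relative ratio of Nfkbia was below 1 in both, at 0.799 (0.743 to 0.859) in Cd83-high and 0.740 (0.682 to 0.802) in Cd83-low cells. That of Nfkbie was 0.921 (0.777 to 1.09) in Cd83-high and 0.698 (0.579 to 0.840) in Cd83-low cells. Because Cd83 is itself a target, the split and the genes are not independent.

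The share of cells with at least 1 UMI was compared after thinning cells to 1000 UMIs, with exact Clopper-Pearson intervals. Some cells were left out of this comparison, such as 55 and 111 neutrophils, 32 and 85 B cells and 21 and 76 T cells. Tnfaip3 was then seen in 39.3% of T cells (37.3 to 41.2) with CCl4 alone and 52.6% (50.8 to 54.3) with IPA. Before thinning it was seen in 72.2% and 77.7% of all T cells, at medians of 3977 and 3268 UMIs. In NK or ILC1 it was seen in 50.3% (45.6 to 55.1) and 62.4% (59.1 to 65.6). In pDCs it was seen in 10.4% (7.45 to 14.1) and 22.7% (18.2 to 27.6), and in B cells in 9.07% (8.16 to 10.0) and 13.95% (12.8 to 15.2). Of the classes compared, plasma cells had the lowest shares, 5 of 71 cells (2.33% to 15.7%) and 1 of 50 cells (0.0506% to 10.6%). With CCl4 alone that interval overlapped the one of B cells. Before thinning the shares in plasma cells were 45.8% and 37.3%, at medians of 16353.5 and 16643 UMIs. No class is known to lack the gene. Nfkbia was seen in 24.1% (22.7 to 25.5) and 21.5% (20.1 to 23.0) of B cells, and in 35.5% (31.0 to 40.2) and 49.9% (46.6 to 53.2) of NK or ILC1. Over the 10 genes and 6 main classes, the share and the level differed in the same direction in 54 of 60 pairs. The exceptions were Nfkbia in neutrophils, where the share was 65.8% and 60.6%, Nfkb2 in neutrophils and B cells, Nfkbie in B cells and classical monocytes, and Bcl3 in pDCs. As a yardstick for free neutrophil RNA, the neutrophil gene S100a8 was found in the other main classes and cDC2s at up to 0.163% of its neutrophil level. At the share carried into each class, neutrophil RNA would make up at most 1.02% of any member's level, for Nfkbiz in B cells. This covers RNA of neutrophils and of no other class. The 8 T cell markers summed to 36.6 and 68.0 CPM in B cells, and the part of T cell RNA in the B cell levels was not tested.

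Mesothelial cells, which line the liver surface, fell outside the rule for classes, with 64 and 67 cells, and were named after their values had been seen. Nfkbia went from 595 CPM (648 UMIs) to 1315 CPM (1280 UMIs) there, a ratio of 2.21 (2.01 to 2.43). Nfkbiz went from 321 to 922 CPM, a ratio of 2.87 (2.54 to 3.26), and Tnfaip3 from 98.2 to 228 CPM, a ratio of 2.32 (1.84 to 2.95). Birc3 had a ratio of 2.61 (1.68 to 4.15) from 30 and 70 UMIs, and Bcl3 1.57 (0.978 to 2.56) from 32 and 45 UMIs. These 5 of 10 genes were past 1.5-fold, beside 17.4% of all genes in mesothelial cells, whose median ratio was 1.04. Nfkb1, Rela and Relb had ratios from 1.31 to 1.39, Nfkb2 1.12 (0.734 to 1.71) and Nfkbie 0.818 (0.428 to 1.54). These cells also carried markers of other classes, at a median of 4 genes of the highest other list in both libraries, and the part of these in the ratios was not tested.

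Other genes of the pathway were read from fixed lists over the same 6 classes. Nfkbid, Tnf, Il1b, Junb and Zfp36 stand in more than 1 list each, so the counts of the lists are not independent. Of the targets, such as cytokines, adhesion molecules and survival genes, 56 of 154 gene-class pairs were at least 1.5-fold higher and 5 at least 1.5-fold lower, beside the 17.7% and 3.73% of all pairs. Of the other feedback genes 19 of 89 were higher and 1 lower by that limit, and of kinases and adaptors, the parts that carry the signal to the dimers, 18 of 124 were higher and 1 lower. Receptors had 13 of 53 higher and 5 lower, and ligands 7 of 30 higher and 0 lower. The remaining Rel and IkB genes, Rel, Nfkbib and Nfkbid, had 4 of 18 higher. A list of genes induced by tissue dissociation or early after any stimulus had 29 of 144 higher and 5 lower. The share past the limit was 36.4% for the targets and 35% for the 10 genes, while that of kinases and adaptors, 14.5%, was near the share of all genes. These shares are of ratios not divided by the all-gene median. By the relative ratio, 4 of 60 pairs of the 10 genes were past the limit, beside 8.51% of all pairs. With the reduced totals given above it was 5 of 60, beside 9.59%. Counts of the other lists are not given by these measures.

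In pDCs 15 of 23 measured targets were past 1.5-fold and 0 were at least 1.5-fold lower, beside 16.9% and 3.73% of all genes, with a median log2 ratio of 0.76 against 0.19 for all genes. Ccr7, a homing receptor, went from 8.39 to 31.8 CPM, a ratio of 3.80 (2.26 to 6.65) from 20 and 60 UMIs. Cd83 had a ratio of 2.07 (1.35 to 3.23), the chemokine gene Ccl5 2.07 (1.61 to 2.66) and the adhesion gene Icam1 1.89 (1.52 to 2.35). Ccr7 is also among the 7 migratory dendritic cell markers, which summed to 947 and 1480 CPM in B cells. The part of lymphocyte RNA in the Ccr7 and Ccl5 levels of pDCs was not tested. Nfkbid, an atypical IkB gene, had a ratio of 1.85 (1.55 to 2.21), and Zc3h12a, whose product degrades cytokine transcripts, 1.84 (1.40 to 2.43). Of the receptors 3 of 8 were past 1.5-fold and 1 was at least 1.5-fold lower, beside the same shares of all genes. Of kinases and adaptors these counts were 3 of 21 and 0. Among them Tnfrsf1b had a ratio of 1.78 (1.11 to 2.89) from 32 and 45 UMIs, and Traf3 1.68 (1.11 to 2.55) from 43 and 57 UMIs. Tlr7, the receptor by which pDCs sense RNA, had a ratio of 1.05 (0.899 to 1.22), and Chuk, a subunit of the IkB kinase, 1.48 (1.16 to 1.90).

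The immediate early list was higher in pDCs as well, with 13 of 24 genes past 1.5-fold, 2 lower, and a median of 0.65. Atf3 went from 89.3 to 297 CPM, a ratio of 3.32 (2.83 to 3.91), Nr4a1 had a ratio of 2.65 (2.33 to 3.02) and Nr4a2 4.39 (2.43 to 8.39). The heat shock gene Hspa1a went the other way, from 95.2 to 29.7 CPM, a ratio of 0.312 (0.229 to 0.420). Marker lists of other cells in pDCs differed too. The 8 T cell markers summed to 59.1 CPM with CCl4 alone and 102 CPM with IPA, with 7 of 8 higher and 0 at 0 UMIs. The 8 NK or ILC1 markers summed to 19.7 and 45.7 CPM, and the 8 B cell markers to 54.5 and 83.9 CPM. The 5 erythroid genes went from 308 to 12.7 CPM, and the 5 pDC markers used in the gate summed to 7107 and 8281 CPM. The T cell sums were 1.07% and 1.81% of those in T cells, and T cell RNA at these shares would hold 6.88 and 18.2 CPM of Tnfaip3, beside the 119 and 315 CPM measured in pDCs. NK or ILC1 RNA at its shares, 0.167% and 0.445%, would hold 1.33 and 6.04 CPM of Tnfaip3. No such value was taken for B cell RNA. The parts of lymphocyte RNA and of the dissociation genes in the pDC ratios were not tested.

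In B cells 8 of 27 measured targets were past 1.5-fold and 0 were at least 1.5-fold lower, beside 17.1% and 3.25% of all genes. Rel, whose product is the main Rel subunit of mature lymphocytes, went from 424 to 579 CPM, a ratio of 1.37 (1.31 to 1.42). Tnfrsf1b, a tumour necrosis factor receptor gene, had a ratio of 2.18 (1.74 to 2.73), from 11.8 to 25.6 CPM, and Traf3, which restrains the alternative pathway, 1.51 (1.34 to 1.71). Ltb, a ligand of that pathway, was lower in the IPA library, 663 against 534 CPM, a ratio of 0.806 (0.776 to 0.837). Nr4a1 had a ratio of 1.81 (1.76 to 1.87) in B cells, while Hspa1a went from 254 to 127 CPM, a ratio of 0.501 (0.466 to 0.538).

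**Figure D4:**
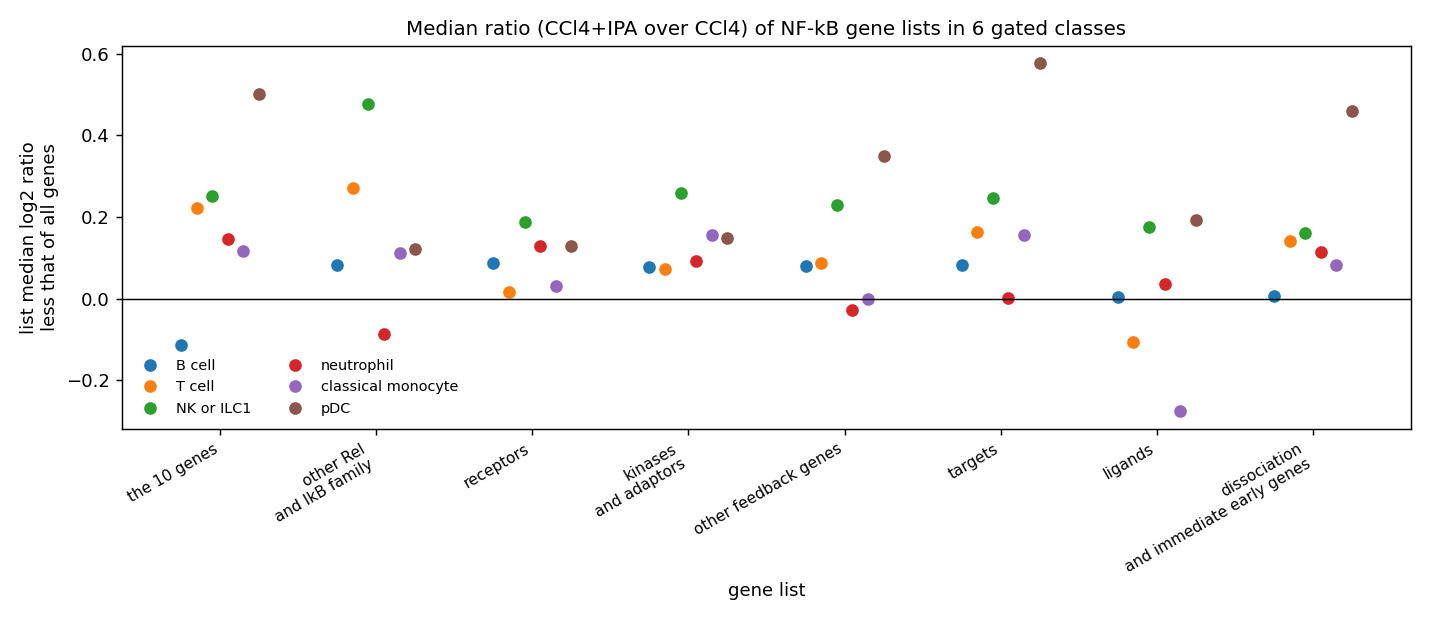
Median log2 ratio (IPA library over CCl4 library) of each gene list less that of all genes (y axis) by list (x axis), 1 point per main class. The pDC points stand highest for the 10 genes, the targets, the other feedback genes and the immediate early genes, and the B cell point of the 10 genes lies below 0.

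Over 20 profiles, each a class in 1 library with at least 50 cells, the 10 genes were not a single pattern. The closest pair was Nfkb1 and Nfkbie, with a Pearson r of 0.91 on log2(CPM + 10), followed by Nfkbiz and Bcl3 with 0.83. The lowest was Nfkbia and Nfkbie, with 0.12. The profiles come in pairs from the same classes and share their libraries and depth, so these values are a description. Among 10190 other genes, those most like Tnfaip3 were Ifit1 (0.93), Zfp36l2 (0.91) and Lta4h (0.91), and those most like Birc3 were Klf2 (0.91), Itprip (0.91) and Narf (0.90). For Nfkbia they were Slc25a20 (0.91), Rab11fip1 (0.91) and Ptpn12 (0.89), and for Nfkbiz Synj1 (0.92), Btg2 (0.91) and Lmo4 (0.90). For Nfkb1 they were Mycbp2 (0.91), Mcmbp (0.90) and Xiap (0.89), for Nfkb2 Bicra (0.86), Ublcp1 (0.86) and Zmym5 (0.84), and for Rela Ddx3x (0.93), Rab11b (0.88) and Fam13b (0.88). For Relb they were Mprip (0.87), Phactr4 (0.86) and Aff4 (0.85), for Nfkbie Dbnl (0.92), Kri1 (0.86) and Dennd4b (0.86), and for Bcl3 Reep3 (0.93), Dennd5a (0.92) and Mapk14 (0.91).

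In the GENCODE annotation Nfkb1 overlaps the gene model Gm43430 on the same strand, and Nfkb2 and Bcl3 overlap models on the other strand. How reads shared with these were counted was not stated in the labels, so the levels of these 3 genes carry that uncertainty.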

How the data were processed

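Liver cells from mice given CCl4, with or without IPA, were captured with the 10x Genomics Chromium 3′ chemistry, per the labels' protocols, after enzymatic dissociation, red cell lysis and removal of dead cells. The authors deposited UMI counts as whole numbers for every gene in every barcode. Per the file headers Cell Ranger 7.1.0 made them, and the build was mm9 per the submitters' processing notes. The handling of intronic reads was not given in the sources used here.

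Barcodes needed 500 UMIs, 300 genes and a mitochondrial share below 20%, which kept 10294 and 10459. Scrublet called 278 and 331 doublets, which were removed. A cell joined the class with the highest fraction of its markers detected, needing at least 3 markers (2 for lists shorter than 6), and was left out if another compartment reached 50% of that fraction. Leiden clusters (resolution 2, 2000 variable genes without the 10, 30 components, 20 neighbours) served only to leave out 2 mixed clusters and as an alternative. These gate and mixed-cluster limits were set after the data had been seen, and the members and gene lists were chosen with earlier results of these data known. A 0 was set at 3 UMIs before a ratio.

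Named were all 10 members, in classes of 100 or more cells per library and smaller ones where a member was highest, the 3 genes most like each (at least 200 UMIs) and up to 4 genes per list with the largest change in pDCs and B cells (at least 50 UMIs). The cDC2 values beyond Nfkb1 and Nfkbie, and the choice of pDCs and B cells, were added after values were seen. Intervals were tested on simulated data. Analyses used scanpy 1.11.5, igraph 0.11.9, scipy 1.17.1, numpy 2.4.6, scikit-learn 1.9.0, matplotlib 3.10.9 and pandas 2.3.3 under Python 3.11.15.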

Additional observations from a re-analysis of the deposited data

Results flagged for a closer look

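The genes Nfkb2, Nfkbia and Nfkbiz lay on opposite sides of the all-gene median in B cells and in pDCs, each with a 95% counting interval off 1 in both. Without cluster 21 the B cell interval of Nfkbiz reached 1.02. The relative ratio of Nfkb2 was 0.810 in B cells and 1.45 in pDCs, that of Nfkbia 0.784 and 1.44, and that of Nfkbiz 0.919 and 1.63. A low Nfkbia was not particular to B cells, with relative ratios of 0.788 in cDC2s and 0.781 in the other T cells. The difference between the classes was not tested, since each group has 1 library.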

How the results depend on the processing

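No paired analysis was possible because each group has 1 library and the labels carry no replicate numbers; for the same reason no replicate could be left out. The count of 21 gene-class pairs at least 1.5-fold higher became 5 with totals without mitochondrial, ribosomal protein, immunoglobulin, haemoglobin and 18S genes, 4 relative to the all-gene median and 1 with a limit of 2-fold. It stayed between 16 and 27 under the other alternatives, and 0 pairs were at least 1.5-fold lower under any of them. The alternatives that kept the mixed clusters (21 pairs), set no limit on markers of other compartments (16 pairs) or left out cluster 21 (19 pairs) were chosen after seeing the data. The log2 ratio of Nfkbiz in B cells, 0.16, became -0.069 with the reduced totals and -0.12 relative to the all-gene median, and that of Nfkbia in neutrophils, 0.11, became -0.048 relative to it. The reduced totals moved log2 ratios in the main classes by -0.10 to -0.22. Over 12 alternatives 45 of 60 pairs kept a ratio above 1, including Tnfaip3 and Birc3 in all 6 classes, and the log2 ratio of Tnfaip3 in pDCs ranged from 1.18 to 1.45. Of 720 ratios under these alternatives, 29 changed sign, in 14 gene-class pairs, and 3 of those (given above) had a counting interval off 1 in the main analysis. Sign changes numbered 9 relative to the all-gene median, 8 with the reduced totals, 6 with thinning and 6 under the other alternatives together. Thinning to 1000 UMIs moved Relb and Nfkbie in pDCs, Bcl3 in NK or ILC1 and Tnfaip3 in classical monocytes by over 1.5 times, to log2 ratios of 1.66, 1.09, 1.10 and 0.16. The class with the highest level stayed the same for 16 to 20 of 20 gene-library pairs. Low counts limited Relb, Nfkb2, Rela, Nfkbie and Bcl3, and which of these had the widest interval differed by class.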
